A study of Mus musculus with 16 samples.

Results

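Dendritic cells take up antigen, carry it to lymph nodes and present it to T cells. Conventional dendritic cells fall into type 1 cells (cDC1), which depend on Batf3 and Irf8 and cross-present antigen to CD8 T cells, and type 2 cells (cDC2), which mainly prime CD4 T cells, while plasmacytoid dendritic cells (pDC) are known for type I interferon. Their precursors depend on the receptor tyrosine kinase Flt3 and its ligand Flt3l. The listed genes were 9 in number, all 9 were found among the 22298 genes counted, and all 9 passed the filter of 10 reads summed over the tumors. Flt3, Zbtb46 (a transcription factor of conventional dendritic cells) and Itgax (CD11c, the integrin chain used to stain dendritic cells, also carried by macrophages) are shared by several subsets. Xcr1 (the receptor for the chemokine Xcl1), Clec9a (a receptor for dead cells), Batf3 and Irf8 belong to the cDC1 program, Cd209a to cDC2 and monocyte-derived dendritic cells, and Siglech to pDC. The members were listed by name and not chosen by a threshold on these counts.

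The tumors grew in wild-type mice of an inbred line, 6 weeks old, that had received 500000 cells of the syngeneic gastric carcinoma line MFC into the peritoneal cavity. The 8 tumors of the vehicle group came from mice given PBS, and the 8 of the IL-33 treatment group from mice given IL-33 at 20 μg/kg every 2 days by the same route. IL-33, a relative of IL-1, signals through the receptor ST2. Whole tumors were sequenced, so the RNA came from tumor cells, immune cells and any neighboring tissue together, and fewer cells of a type and less RNA per cell cannot be told apart. The mice were of either sex, and the number of mice behind the tumors was not given in the labels.

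The depth of the vehicle tumors was 14139268 to 24290794 counted reads and that of the IL-33 tumors 16569613 to 24288893. Levels are given as CPM, the count per 1000000 counted reads of the tumor, and 1 read in vehicle replicate 4, the shallowest tumor, was 0.0707 CPM. Krt8 and Krt19, keratins of simple epithelium, were present in every tumor, with lowest values of 180.8 and 44.5 CPM. The epithelial genes Epcam and Krt18 were near 0, at medians of 0.389 and 0.206 CPM, outside IL-33 replicate 7, where they reached 98.8 and 159 CPM. That tumor also held 1704 CPM over 8 marker genes of the ovary, uterus and oviduct, against at most 4.92 CPM in any other tumor. The comparisons of the members between the groups are therefore given with and without IL-33 replicate 7, while levels per kb and levels relative to macrophage markers cover all 16 tumors. The defining dendritic cell genes were measured but low: Flt3, Xcr1, Cd209a and Siglech had 321, 561, 316 and 392 reads over the 16 tumors, Batf3 675 and Clec9a 847.

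In the GENCODE M21 annotation of GRCm38, Irf8 (ENSMUSG00000041515) lies at chr8:120736358-120756694 on the plus strand, Batf3 (ENSMUSG00000026630) at chr1:191097847-191108945 on the plus strand, and Siglech (ENSMUSG00000051504) at chr7:55768178-55778925 on the plus strand. Flt3 (ENSMUSG00000042817) lies at chr5:147330741-147400489, Zbtb46 (ENSMUSG00000027583) at chr2:181387762-181459426, Xcr1 (ENSMUSG00000060509) at chr9:123852315-123862029 and Cd209a (ENSMUSG00000031494) at chr8:3743397-3748984, all on the minus strand. Itgax (ENSMUSG00000030789) lies at chr7:128129547-128150657 and Clec9a (ENSMUSG00000046080) at chr6:129408862-129424763, both on the plus strand. Clec9a shares 184 exon bases with Clec1b on the same strand, and Clec1b had only 31 reads over the 16 tumors. No other member shared exon bases with another annotated gene.

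Promoter windows of 250 bases before to 50 bases after the start site were taken from RefSeq (GRCm38.p6) for all 9 members, with 2 windows for Irf8. Both strands were searched for TTCNNNGAA, the palindrome bound by STAT dimers, TGANTCA, an AP-1 type element, an ETS-IRF composite element (GGAA and GAAA with 2 bases between them), and a core of interferon response elements (GAAA repeated after 2 bases). TTCNNNGAA was found for 3 of the 9 members, Irf8, Siglech and Batf3, and in 8.3% of 32851 windows of the same length. TGANTCA was found at -56 of Itgax and -61 of Zbtb46 and in 7.81% of windows. The ETS-IRF element was found at -9 of Cd209a, on the opposite strand, and in 2.72% of windows, and the interferon element in 0 members' windows and in 3.44% of all. Flt3, Xcr1 and Clec9a held none of these letters in this window. The 3 windows with TTCNNNGAA are shown 5′ to 3′ on the gene's strand because they hold the motif most frequent among the members, with its letters in capitals, at -171 and -153 for Irf8, -123 for Siglech and -239 for Batf3, counted from the start site as 0.
Irf8 (chr8:120736108-120736407, plus strand): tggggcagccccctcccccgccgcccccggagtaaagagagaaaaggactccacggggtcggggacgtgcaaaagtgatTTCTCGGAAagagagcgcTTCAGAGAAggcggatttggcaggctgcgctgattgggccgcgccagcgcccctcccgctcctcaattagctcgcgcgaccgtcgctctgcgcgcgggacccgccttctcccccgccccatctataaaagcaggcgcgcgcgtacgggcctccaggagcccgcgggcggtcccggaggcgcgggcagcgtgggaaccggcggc
Siglech (chr7:55767934-55768233, plus strand): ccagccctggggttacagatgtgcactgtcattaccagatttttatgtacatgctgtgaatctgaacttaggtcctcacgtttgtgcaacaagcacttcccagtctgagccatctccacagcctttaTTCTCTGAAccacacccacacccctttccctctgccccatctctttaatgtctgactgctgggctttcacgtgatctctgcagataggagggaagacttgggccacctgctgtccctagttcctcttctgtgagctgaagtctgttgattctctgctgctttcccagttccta
Batf3 (chr1:191098164-191098463, plus strand): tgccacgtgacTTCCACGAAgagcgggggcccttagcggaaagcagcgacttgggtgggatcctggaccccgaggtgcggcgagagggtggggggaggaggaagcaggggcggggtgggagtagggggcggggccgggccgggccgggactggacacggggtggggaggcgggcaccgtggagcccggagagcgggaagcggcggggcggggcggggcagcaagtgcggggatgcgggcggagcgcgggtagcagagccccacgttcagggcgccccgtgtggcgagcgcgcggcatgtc
The RefSeq windows of Batf3 and Zbtb46 (chr2:181424339-181424638, minus strand) lie downstream of the GENCODE starts of these genes, that of Zbtb46 far inside the gene.

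Differences of the dendritic cell genes between the groups stayed within the spread between tumors. None of the 9 members passed an adjusted p of 0.05 in edgeR's quasi-likelihood test, with adjusted p between 0.511 and 0.981, and the share of all 16817 genes tested that passed was 0.0%. At an unadjusted p under 0.05, 0 of 9 members passed, against 11.2% of all genes tested. DESeq2 also gave 0 members at that unadjusted threshold, which 4.11% of all genes passed, and limma voom with sample weights gave 2, Flt3 and Cd209a, with adjusted p of 0.761 and 0.766, against 5.74% of all genes. No member had groups that did not overlap in CPM, which was also so for 0.0% of all genes. The median log2 fold change (IL-33 against vehicle) was 0.54 over the members, with 8 of 9 above 0, and 0.06 over all genes. The share of all genes above 0 was not counted. The 9 signs are not separate observations, since 6 of the members shared most of their highest tumors. Without IL-33 replicate 7 the members' median was 0.28 with 6 of 9 above 0, the median of all genes was -0.01, again 0 of 9 members passed the unadjusted threshold, and 4.12% of 15803 genes did. DESeq2 without that tumor gave 1 member, Cd209a, against 4.29% of all genes.

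**Figure D1:**
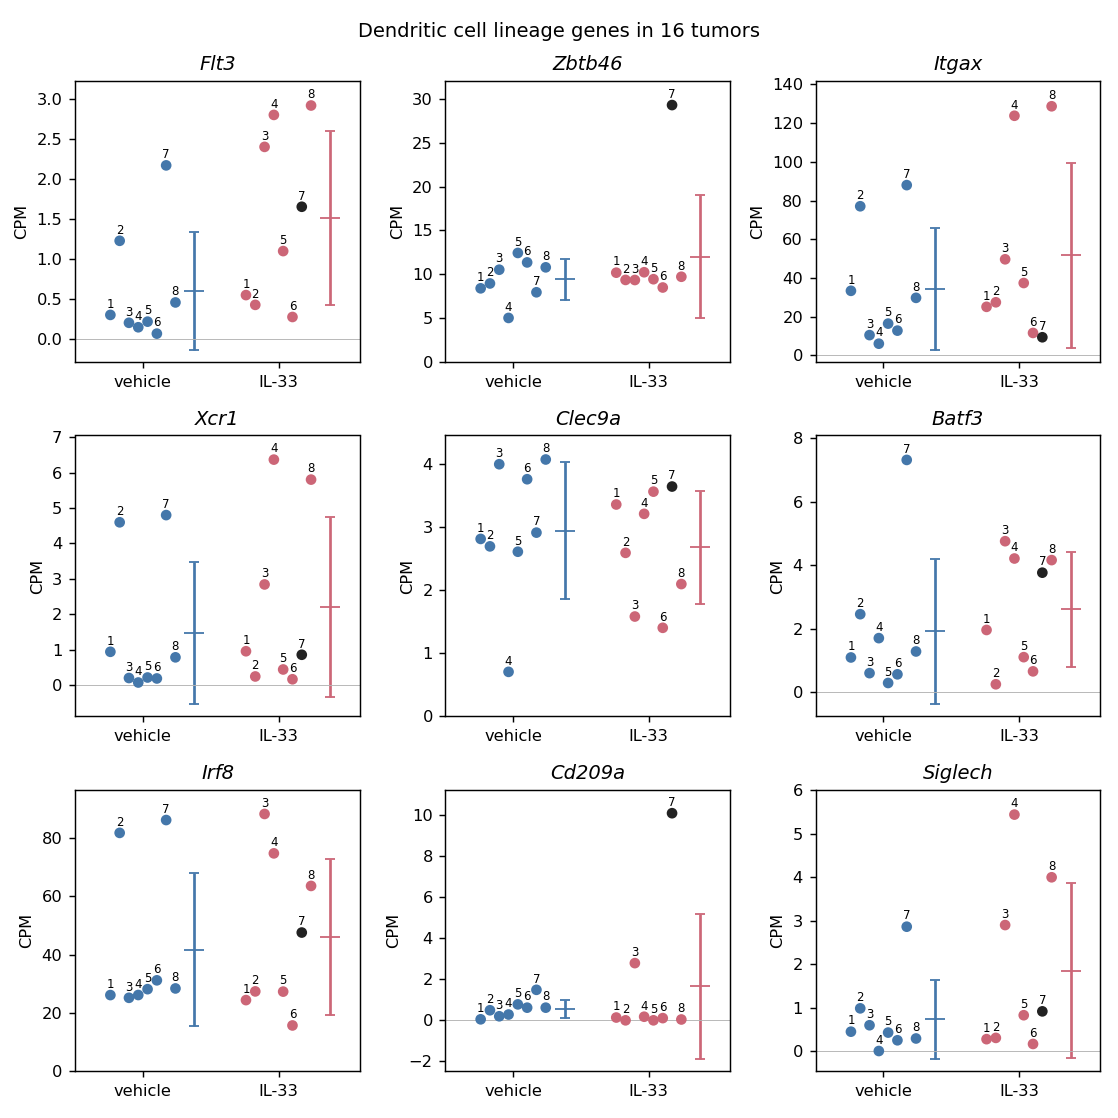
Levels (CPM, linear axis) of the 9 dendritic cell lineage genes in each of 8 vehicle (blue) and 8 IL-33 (red) tumors, numbered by replicate, with the mean and SD of each group beside the points and IL-33 replicate 7 in black. The groups overlap for every gene, Zbtb46 and Cd209a are highest in IL-33 replicate 7, and Xcr1 is above 2.8 CPM in the same 5 tumors that are highest for Irf8.

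Flt3, the receptor that drives dendritic cell development, had the smallest p of the members in edgeR on all tumors. Vehicle tumors held 0.0617 to 2.17 CPM of it (median 0.254) and IL-33 tumors 0.270 to 2.92 CPM (median 1.38), on 1 to 71 reads per tumor. Replicates 3, 4 and 8 of the IL-33 group exceeded every vehicle tumor, and replicates 1, 2, 5, 6 and 7 lay within the vehicle range. Of the 8 IL-33 tumors 5 exceeded the vehicle mean. Its mean was 0.595 ± 0.736 CPM (SD, n = 8) with vehicle and 1.51 ± 1.09 CPM (SD, n = 8) with IL-33, a ratio of 2.55. On the log2 scale the fitted change was 1.28 ± 0.68 (SE; edgeR adjusted p = 0.511) and 1.30 ± 0.67 without IL-33 replicate 7 (adjusted p = 0.964). The difference of the mean log2(CPM + 0.5) was 0.88 (exact permutation test, two-sided, p = 0.0518) and 0.84 without IL-33 replicate 7 (p = 0.0802, exact permutation test). The value leaned on vehicle replicate 7, the vehicle tumor with the most Flt3: without it the log2 fold change was 1.93, past the unadjusted threshold in edgeR together with 11.4% of all genes, and the exact permutation test gave p = 0.0154.

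Itgax, the gene of CD11c, varied widely in both groups. Its level was 6.08 to 88.0 CPM with vehicle (median 23.1) and 9.40 to 129 CPM with IL-33 (median 32.4). IL-33 replicates 4 and 8 were above every vehicle tumor, while IL-33 replicate 7 had the second lowest value of all 16 tumors. Itgax had a log2 fold change of 0.56 ± 0.58 (SE, edgeR adjusted p = 0.790) and 0.74 ± 0.56 without IL-33 replicate 7, and single tumors moved it from 0.23 (without IL-33 replicate 8) to 0.91 (without vehicle replicate 7). Zbtb46, in contrast, lay in a narrow band, at 5.02 to 12.4 CPM with vehicle (median 9.74) and 8.49 to 10.2 CPM in 7 IL-33 tumors, with 29.3 CPM in IL-33 replicate 7. That tumor gave 28.5% of the group's Zbtb46 reads, and leaving it out moved the ratio of the group means from 1.27 to 1.01, with a mean of 9.54 ± 0.59 CPM (SD, n = 7) in the other IL-33 tumors and 9.43 ± 2.35 CPM (SD, n = 8) with vehicle. The log2 fold change of Zbtb46 accordingly went from 0.23 ± 0.22 (SE, edgeR adjusted p = 0.758) to -0.014 ± 0.14 (adjusted p = 0.993).

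Among the cDC1 genes, Xcr1 had the widest range of the members without a value of 0, 90.1-fold between its lowest and its highest tumor. Vehicle tumors held 0.0707 to 4.80 CPM (median 0.497) and IL-33 tumors 0.162 to 6.37 CPM (median 0.904). The tumors formed separate sets of Xcr1 level, with vehicle replicates 2 and 7 and IL-33 replicates 3, 4 and 8 at 2.84 CPM or more and the other 11 tumors at 0.954 CPM or less. Between the groups the log2 fold change of Xcr1 was 0.54 ± 0.89 (SE, edgeR adjusted p = 0.886), and 0.69 ± 0.89 without IL-33 replicate 7, with a range from 0.13 (without IL-33 replicate 4) to 1.10 (without vehicle replicate 7) when single tumors were left out. Batf3, the transcription factor needed for cDC1 development, was at 0.283 to 7.32 CPM (median 1.18) with vehicle and 0.241 to 4.75 CPM (median 2.86) with IL-33. The highest Batf3 value was in vehicle replicate 7 and the lowest in IL-33 replicate 2, and the log2 fold change was 0.31 ± 0.65 (SE, edgeR adjusted p = 0.920), or 0.28 without IL-33 replicate 7, and from 0.11 (without IL-33 replicate 3) to 0.97 (without vehicle replicate 7) over all single tumors left out. Irf8, which also acts in monocytes, macrophages, B cells and pDC, was at 25.1 to 86.3 CPM (median 28.2) with vehicle and 15.6 to 88.4 CPM (median 37.5) with IL-33. Its 5 highest tumors were the 5 with the highest Xcr1, and its log2 fold change was 0.05 ± 0.36 (SE, edgeR adjusted p = 0.981), or 0.09 without IL-33 replicate 7, and from -0.17 (without IL-33 replicate 3) to 0.26 (without vehicle replicate 7) over all single tumors left out.

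Clec9a differed from Xcr1, Batf3 and Irf8 in where it was high. It lay between 0.707 and 4.08 CPM with vehicle (median 2.87) and between 1.41 and 3.65 CPM with IL-33 (median 2.91), and its mean was 2.95 ± 1.09 CPM and 2.68 ± 0.90 CPM (SD, n = 8 each). The lowest value was in vehicle replicate 4, and of the 5 tumors with high Xcr1 none was among the 5 highest for Clec9a, while IL-33 replicates 3 and 8 were among its 5 lowest. The log2 fold change of Clec9a was -0.19 ± 0.30 (SE, edgeR adjusted p = 0.880) and -0.22 ± 0.28 without IL-33 replicate 7, the only member below 0 in the first of these fits, and it ran from -0.32 (without vehicle replicate 4) to -0.11 (without IL-33 replicate 3) with single tumors left out. Per kb of exon, the Clec9a level was 4.06 to 27.5 times the Xcr1 level in 11 tumors and 0.489 to 0.821 times it in the other 5, vehicle replicates 2 and 7 and IL-33 replicates 3, 4 and 8. In vehicle replicate 6, for example, 61 reads fell on Clec9a and 3 on Xcr1, while in IL-33 replicate 8 the reads were 51 and 141.

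**Figure D2:**
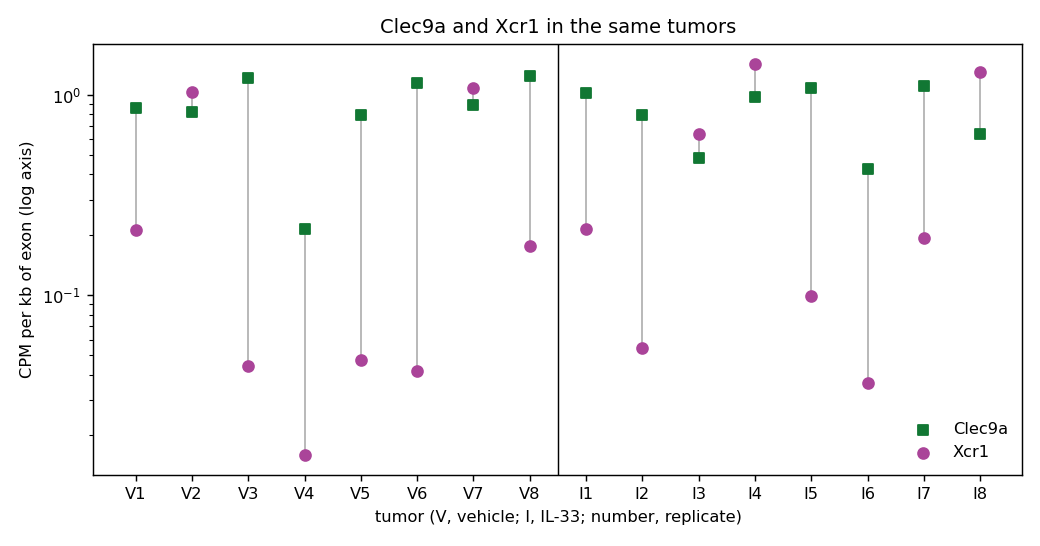
Levels of Clec9a (squares) and Xcr1 (circles) in CPM per kb of exon, on a log axis, in each vehicle (V) and IL-33 (I) tumor. Clec9a lies above Xcr1 in 11 of 16 tumors and below it in V2, V7, I3, I4 and I8, and Xcr1 spans 90.1-fold and Clec9a 5.76-fold between tumors.

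Cd209a, a C-type lectin of the DC-SIGN family, depended on a single tumor. It lay between 0.0494 and 1.49 CPM with vehicle (median 0.554) and between 0 and 10.1 CPM with IL-33 (median 0.122). Of the 237 reads in the IL-33 group 177 came from replicate 7 and 51 from replicate 3. Below every vehicle tumor in CPM were 3 IL-33 tumors, on 0 or 1 read each. Vehicle replicate 1, the lowest vehicle tumor, also had only 1 read. IL-33 replicates 2 and 5 had no read, which at their depth allows up to 0.181 and 0.165 CPM (3 reads, counting error only). Its log2 fold change was 1.30 ± 1.14 (SE, edgeR adjusted p = 0.731) and -0.32 ± 0.95 without IL-33 replicate 7 (adjusted p = 0.974), and DESeq2 and limma voom on all 16 tumors gave -0.38 and -2.22, and DESeq2 without that tumor -2.47. The direction of Cd209a therefore turned with the tumor and with the tool. Tumor and tool need not be separate here, since DESeq2 by default replaces outlying counts in groups of this size. For the reproductive tract gene Foxl2, with all its 1425 reads in IL-33 replicate 7, edgeR gave 10.26 and DESeq2 on all 16 tumors 0. Whether the Cd209a count of that tumor was replaced was not tested. The other Cd209 genes of the mouse cluster were also highest in IL-33 replicate 7 in every case: their summed level was 126 CPM there, and between 2.82 and 52.4 CPM with vehicle.

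Siglech, a sialic acid-binding lectin of pDC, lay between 0 and 2.86 CPM with vehicle (median 0.434) and between 0.162 and 5.44 CPM with IL-33 (median 0.867). Vehicle replicate 4 had no read, which allows up to 0.212 CPM. IL-33 replicates 3, 4 and 8 were above every vehicle tumor, and IL-33 replicate 6 was below all vehicle tumors but replicate 4. Of these, IL-33 replicate 3 had 53 reads and vehicle replicate 7 had 50. IL-33 replicate 6 had 3 reads and vehicle replicate 6 had 4, so both orders lie within counting error. For Siglech the log2 fold change was 1.29 ± 0.82 (SE, edgeR adjusted p = 0.604) and 1.42 ± 0.79 without IL-33 replicate 7 (adjusted p = 0.964). Vehicle replicate 7 was far above the other vehicle tumors for Siglech, and without it the log2 fold change was 2.04, also past the unadjusted threshold in edgeR, while without IL-33 replicate 4 it was 0.86.

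**Figure D3:**
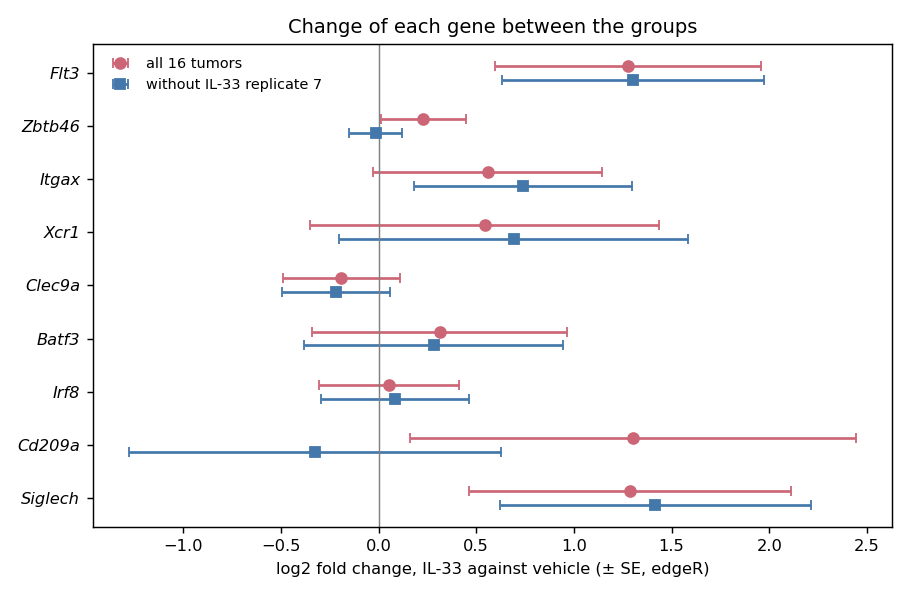
Log2 fold change of each gene between the IL-33 and vehicle groups with its SE (bars), from edgeR on all 16 tumors (circles) and without IL-33 replicate 7 (squares). Cd209a moves from 1.30 to -0.32 and Zbtb46 from 0.23 to -0.014 when that tumor is left out, and the other 7 genes keep their sign.

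Compared per kb of exon, Itgax and Irf8 had the highest mean levels over the 16 tumors, 8.94 and 6.22 CPM per kb, and Itgax was above Irf8 in 10 of 16 tumors. Batf3 followed at 1.41 CPM per kb and was below Irf8 in every tumor. Batf3 and Zbtb46 (1.26 CPM per kb) could not be ordered, since Batf3 was higher in 7 of 16 tumors. Zbtb46 was above Clec9a (0.855 CPM per kb) in all 16. Cd209a, at a mean of 0.705 CPM per kb set by IL-33 replicate 7, was below Clec9a in 13 tumors and above Xcr1 in 8. Xcr1 and Siglech, at 0.413 and 0.381 CPM per kb, were not ordered either, with Xcr1 higher in 7 of 16 tumors, and Flt3 had the lowest mean level, 0.171 CPM per kb.

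Part of the wide spread was shared among 6 of the members. Itgax, Xcr1 and Irf8 had the same 5 highest tumors, vehicle replicates 2 and 7 and IL-33 replicates 3, 4 and 8, and the same tumors were the 5 highest for Siglech. Flt3 and Batf3 shared 4 of these 5, with IL-33 replicate 7 in place of vehicle replicate 2. At the other end, IL-33 replicate 6 was among the 5 lowest for all 9 members and vehicle replicate 4 for 7 of them. The 5 tumors with high Xcr1 were also those with the highest Ptprc (CD45, the common leukocyte antigen), at 144 to 306 CPM against 11.6 to 84.1 CPM in the other 11. Their summed level of 10 T cell markers was 32.9 to 103 CPM, against 5.62 to 25.5 CPM, and that of 6 natural killer (NK) cell markers 14.7 to 46.4 CPM, against 4.81 to 13.1 CPM. The summed B cell, macrophage and mast cell markers overlapped between the 2 sets of tumors. These were 14.4 to 85.4 against 2.41 to 34.3 CPM, 1152 to 2329 against 643 to 1846 CPM, and 13.4 to 96.5 against 2.60 to 83.6 CPM. Zbtb46 was at 7.95 to 10.2 CPM in these 5 tumors and at 5.02 to 29.3 CPM in the other 11. Clec9a was at 1.585 to 3.21 CPM and 0.707 to 4.08 CPM, so neither gene separated the tumors high in Ptprc. Whether dendritic cells carried the Zbtb46 and Clec9a reads was not tested. The part of these other cells in the members' levels was not tested either.

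**Figure D4:**
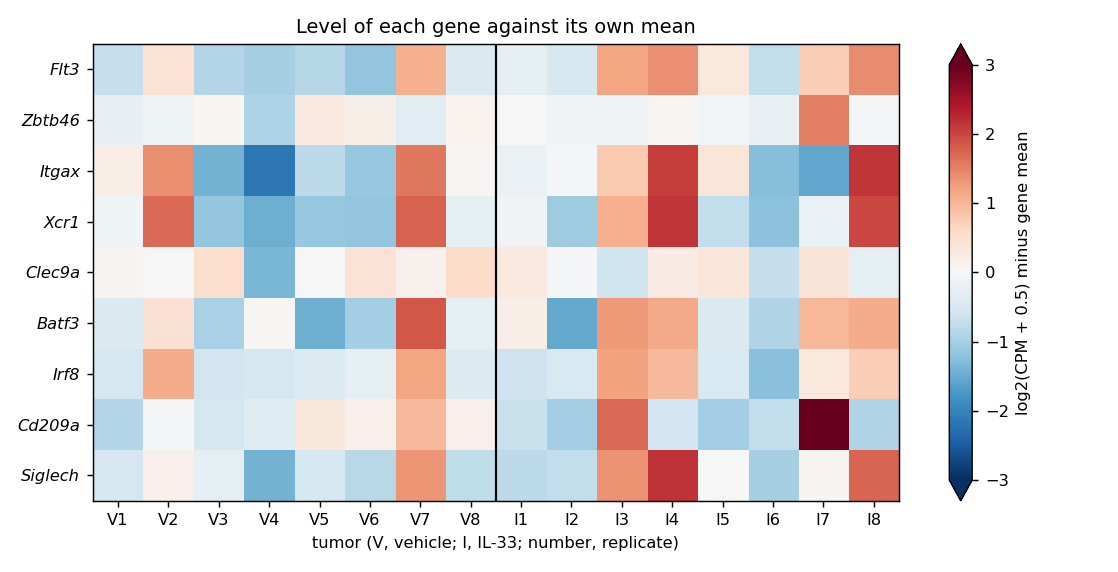
Log2(CPM + 0.5) of each gene minus its mean over the 16 tumors (color, red above and blue below the mean), for vehicle (V) and IL-33 (I) tumors. V2, V7, I3, I4 and I8 are above the mean for Flt3, Itgax, Xcr1, Batf3, Irf8 and Siglech, Clec9a and Zbtb46 stay pale in most tumors, and Cd209a is darkest in I7.

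Over all 16 tumors 15 of the 36 pairs of members passed an adjusted permutation p of 0.05 for Spearman's rho, 14 of them among the same 6 members, but these values rest on tumors in separate sets and no pooled coefficient is given. Within the 11 tumors with the lower Xcr1 levels, 0 of 36 pairs passed the adjusted threshold and 4 an unadjusted one for rho. The highest rho there was for Flt3 and Xcr1, at 0.773 (permutation p = 0.00745, adjusted p = 0.266; Pearson's r 0.600, permutation p = 0.0473, adjusted p = 0.180). The other 3 pairs under the unadjusted threshold all held Zbtb46, with Cd209a (rho 0.724, permutation p = 0.0148, adjusted p = 0.266; r 0.846, permutation p = 0.0128, adjusted p = 0.116), Irf8 (rho 0.673, permutation p = 0.0272, adjusted p = 0.327; r 0.704, permutation p = 0.0224, adjusted p = 0.134) and Clec9a (rho 0.645, permutation p = 0.0374, adjusted p = 0.337; r 0.621, permutation p = 0.0739, adjusted p = 0.189). Zbtb46 and Cd209a also had the highest r, which was 0.370 without IL-33 replicate 7. Without that tumor the highest rho in the set was 0.806 for Itgax and Xcr1, followed by 0.794 for Flt3 and Itgax and 0.782 for Flt3 and Xcr1. The 6 members that shared their high tumors, a set named after their values were seen, gave a median rho of 0.29 over their 15 pairs, with 12 of 15 above 0. Taking the tumors with low Xcr1 narrows the range of a member, so these values do not show whether the members share an order over all tumors.

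Relative to Ptprc in the same tumor, 0 of 9 members passed a p of 0.05. A pseudocount of 0.5 CPM was added to both levels before the ratio was taken. The vehicle medians of Flt3, Siglech and Xcr1 (0.254, 0.434 and 0.497 CPM) and the IL-33 median of Cd209a (0.122 CPM) lay below it. In such tumors the pseudocount sets much of the ratio, so for these 4 genes the test cannot show whether they followed Ptprc. The difference in the log2 ratio to Ptprc was 0.35 for Flt3 (p = 0.332, two-sided exact permutation test), 0.17 for Siglech (p = 0.536) and 0.03 for Itgax (p = 0.895). Without IL-33 replicate 7 these were 0.20, 0.10 and 0.19 (p = 0.615, 0.739 and 0.406, exact permutation test). For the cDC1 genes it was -0.06 for Xcr1 (p = 0.858), -0.07 for Batf3 (p = 0.897), -0.42 for Irf8 (p = 0.307) and -0.61 for Clec9a (p = 0.283), all by the exact permutation test, and without that tumor -0.11, -0.29, -0.57 and -0.78 (p = 0.751, 0.655, 0.124 and 0.190, exact permutation test). Zbtb46 and Cd209a gave -0.28 and -0.48 (p = 0.661 and 0.589, exact permutation test), and -0.59 and -1.07 without IL-33 replicate 7 (p = 0.334 and 0.111, exact permutation test). Ptprc itself was 86.9 ± 67.9 CPM with vehicle and 126 ± 101 CPM with IL-33 (SD, n = 8 each; log2 fold change 0.49 ± 0.49 SE, edgeR adjusted p = 0.774). Relative to the summed level of 10 macrophage markers in place of Ptprc, on all 16 tumors, the difference of Flt3 was 0.83 (p = 0.0121, exact permutation test), the only member under 0.05 among the 9, and relative to Ptprc without vehicle replicate 4 it was 0.62 (p = 0.0124, exact permutation test).

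No ligand of the members passed the test. Flt3l, the ligand of Flt3, was at 7.95 ± 1.69 CPM with vehicle and 8.40 ± 1.78 CPM with IL-33 (SD, n = 8 each), with a log2 fold change of -0.05 ± 0.22 (SE, edgeR adjusted p = 0.968). Csf2, the gene of GM-CSF, had 47 reads over the 16 tumors, and Xcl1, the ligand of Xcr1, 131. Of the 6 ligands and growth factors (Flt3l, Csf2, Xcl1, Csf1, Il34 and Kitl) none passed an unadjusted p of 0.05 in edgeR, and their median log2 fold change was -0.15. Kitl had the smallest p among them (log2 fold change -0.25 ± 0.24 SE, edgeR adjusted p = 0.757). Of 5 growth factor receptors, 2 were higher with IL-33 at an unadjusted p under 0.05, Csf2rb, the shared signaling chain of the GM-CSF receptor (0.57 ± 0.25, SE; edgeR adjusted p = 0.420), and Kit (1.19 ± 0.55, SE; adjusted p = 0.435). Without IL-33 replicate 7 they were 0.39 and 0.15, and 0 of 5 passed. That tumor gave 60.0% of the IL-33 group's Kit reads and 25.1% of its Csf2rb reads. For Csf2rb 3 IL-33 tumors exceeded every vehicle tumor, and for Kit 1 did. In all genes tested, 9.99% were higher and 1.17% lower at this threshold, and without IL-33 replicate 7 the shares were 1.83% and 2.29%.

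Irf4, which drives cDC2 and also acts in plasma cells and macrophages, was the gene of the related programs with the smallest p. It lay between 0.354 and 4.72 CPM with vehicle (median 1.10) and between 0.757 and 17.7 CPM with IL-33 (median 4.57), with 4 IL-33 tumors above every vehicle tumor. Its log2 fold change was 1.75 ± 0.61 (SE, edgeR adjusted p = 0.418) and 1.80 ± 0.63 without IL-33 replicate 7 (adjusted p = 0.964). It was the only one of 10 further cDC2 genes under an unadjusted p of 0.05, in both fits, and the median of the 10 was 0.42, or 0.23 without that tumor. Id2, a regulator needed for cDC1 and also for innate lymphoid cells, was at 28.3 ± 6.19 CPM with vehicle and 45.0 ± 19.1 CPM with IL-33 (SD, n = 8 each). Its log2 fold change was 0.59 ± 0.24 (SE, edgeR adjusted p = 0.418) and 0.58 ± 0.25 without IL-33 replicate 7 (adjusted p = 0.964), and 1 of 10 lineage regulators, Id2 itself, was under 0.05 in both fits, with a median over the list of 0.13.

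Among 10 further cDC1 genes 1 was under an unadjusted p of 0.05, Mycl, with a log2 fold change of 3.30 ± 1.16 (SE, edgeR adjusted p = 0.418), and IL-33 replicate 7 held 87.5% of that group's Mycl reads. Without that tumor the value of Mycl was 0.55, 0 of 10 passed, and the list's median was 0.39 in place of 0.44. Of 9 further pDC genes 0 passed on all tumors, with a median of -0.05, and without IL-33 replicate 7 only Ccr9, a homing receptor, did (1.80, edgeR adjusted p = 0.964), on 149 reads in all. None of the 6 other Cd209 genes passed, and their median went from 0.12 to -1.11 without that tumor, with Cd209c (0.45 ± 0.35, SE; edgeR adjusted p = 0.689) at the smallest p. None of 4 integrin genes related to Itgax (Itgam, Itgad, Itgal and Itgb2) passed, with a median of 0.43, and Itgam, the gene of CD11b, went from 0.60 (edgeR adjusted p = 0.583) to 0.74 without it (adjusted p = 0.964, past the unadjusted threshold). For all these lists, counts stand beside the shares of all genes given above, and no gene passed an adjusted p of 0.05.

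**Figure D5:**
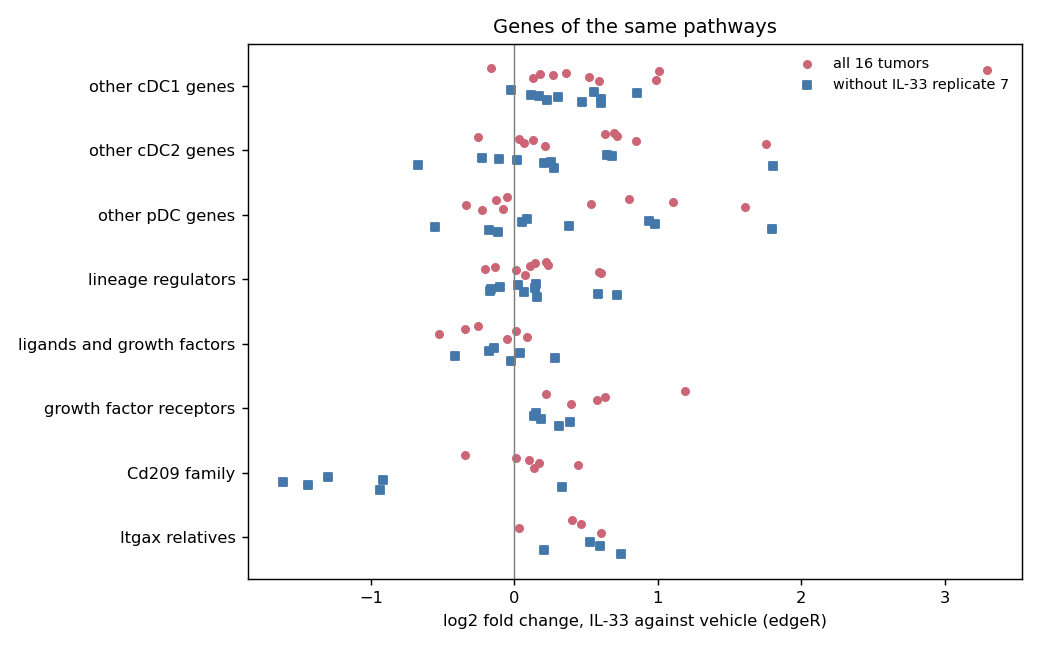
Log2 fold change (IL-33 against vehicle, edgeR) of each gene of 8 related lists, on all 16 tumors (circles) and without IL-33 replicate 7 (squares). The Cd209 family shifts to the left without that tumor, and Mycl, the circle at 3.30 among the cDC1 genes, moves to 0.55 among the squares.

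Markers of the other cells in these tumors moved as follows. Of 10 macrophage markers 0 had an unadjusted p under 0.05 in edgeR (median log2 fold change -0.02; smallest p for Cd14, -0.46 ± 0.31, SE, adjusted p = 0.626), and their sum lay between 881 and 2329 CPM with vehicle and between 643 and 2142 CPM with IL-33. Of 6 monocyte markers (median 0.45) 1 was higher at that threshold, Fcnb, on 22 reads in all, and without IL-33 replicate 7 (median 0.38) 2 were, Fcnb and Ly6c2, the latter on 14717 reads. Of 10 T cell and 10 B cell markers 0 passed, with medians of 0.30 and 0.19 and the smallest p for Cd247 (0.71, adjusted p = 0.641) and Cd79b (0.83, adjusted p = 0.665) in edgeR. Of 6 NK cell markers 1 was higher, Klra8, on 16 reads in all, with a median of 0.82, and without IL-33 replicate 7 (median 0.91) 2 were, Klra8 and Klrb1c, the latter on 235 reads. The adjusted p of Ly6c2 and Klrb1c in that fit was 0.964 in edgeR, and 1.83% of all genes were higher at the unadjusted threshold. Of 6 mast cell markers 1 was higher, Kit, with a median of -0.57, and 0 without that tumor, with a median of -0.86. Of 6 lymph node stroma markers 4 could be tested, and Ccl21a turned from 3.78 (adjusted p = 0.427) to -3.52 (adjusted p = 0.964) in edgeR, past the unadjusted threshold both times, without IL-33 replicate 7. All 8 genes of the female reproductive tract were higher at an unadjusted p under 0.05, and none without that tumor, in which 6 could still be tested.

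Over the 16 tumors, 13100 genes with a mean of at least 1 CPM were ranked by Spearman's rho with each member, as a description with no test. The genes most like Flt3 were Il10ra, Rasgef1b and Naip5 (rho 0.956, 0.953 and 0.953), and those most like Itgax were Cd244a, Sirpb1a and Samsn1 (0.988, 0.974 and 0.971). Xcr1 was most like Parvg, Bank1 and Arhgap30 (0.982, 0.982 and 0.971), and Siglech most like Gbp9, Dock2 and Oasl2 (0.974, 0.971 and 0.962). For Batf3 they were Sf3a3, A630001G21Rik and Sept1 (0.944, 0.938 and 0.935), and for Irf8 Plau, Apol6 and Apol7b (0.909, 0.909 and 0.906). Other genes stood beside the members that did not share the 5 high tumors: Cdc42ep1, Zmat1 and Sgcb for Clec9a (0.882, 0.853 and 0.850), Map3k12, Mavs and Mylip for Zbtb46 (0.903, 0.903 and 0.894), and Npr1, Dhrs4 and Ahsa2 for Cd209a (0.905, 0.905 and 0.886). These values share the separate sets of tumors described for Xcr1 and the library sizes.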

How the data were processed

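RNA from 16 tumors (8 vehicle, 8 IL-33) had been selected by its poly(A) tail and sequenced commercially. The authors deposited raw counts of reads per gene for each tumor, without normalization; their processing notes name HISAT2, featureCounts and mm10, with no versions, and neither the annotation release nor the use of strand is given in the sources used here, so reads of overlapping or antisense genes cannot be told apart. Groups and replicate numbers were taken from the labels. GENCODE M21 gave symbols for 22255 of 22298 identifiers. CPM is the count per 1000000 counted reads of the tumor. The 16817 genes with at least 10 summed counts were tested with edgeR 4.0.16 (R 4.3.3; TMM, glmQLFit, glmQLFTest, Benjamini-Hochberg), with a pseudocount of 0.5 CPM in the exact permutation tests of single genes, whose p-values are not adjusted. Where nothing states separate animals, p-values measure only the spread between these tumors. No pair of libraries was alike within sampling noise (chi-square per degree of freedom of at least 8.79). Permutation p of correlations used 100000 draws, and pairs of members are given by their count over all 16 tumors and by coefficients within 11, since the tumors fell into separate sets.

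Alternatives were DESeq2 1.42.0, limma 3.58.1 voom with sample weights, other normalization and filters, the replicate number as a block, other pseudocounts and references, and each tumor left out in turn; DESeq2 without IL-33 replicate 7 and the correlations within 11 tumors were added after the data were seen. The edgeR and DESeq2 fits were tested on simulated data. The members and lists were chosen with earlier results of these data known. Named genes are the members, the genes of each list with an unadjusted p under 0.05 or else the smallest p, the 3 genes most like each member, and Ptprc; others are named to describe a list.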

Additional observations from a re-analysis of the deposited data

Results flagged for a closer look

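Of 18 groups of 8 tumors (each member in each group), 5 held a tumor whose gap to its nearest neighbor was a larger part of the group's range than Dixon's limit for 8 values. Chance passes that limit in about 1 group in 20 when values are normally distributed. The limit was set against CPM on a linear scale, for which that share need not hold. IL-33 replicate 7 stood apart for Zbtb46, at 29.3 CPM with the next IL-33 tumor at 10.2 CPM (ratio 0.917), and for Cd209a, at 10.1 CPM with the next at 2.79 CPM (ratio 0.724). Vehicle replicate 7 stood apart for Batf3, at 7.32 CPM with the next at 2.45 CPM (ratio 0.692), and for Siglech, at 2.86 CPM with the next at 0.981 CPM (ratio 0.657). Vehicle replicate 4 was low for Clec9a, at 0.707 CPM with the next at 2.61 CPM (ratio 0.566), and had the lowest TMM factor, 0.640. IL-33 replicate 7 had the highest TMM factor, 1.24.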

How the results depend on the processing

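No gene passed an adjusted p of 0.05 between the groups under any alternative except DESeq2 without IL-33 replicate 7, which gave 1, Alas2, a gene of heme synthesis in red blood cells named after its value was seen. At an unadjusted p under 0.05 the higher genes numbered 1680, and 498 with filterByExpr, 424 with DESeq2, 522 with limma voom, 286 with DESeq2 without IL-33 replicate 7 and 289 to 1902 with each tumor left out; the lower genes numbered 196, and 444 with voom, 392 with DESeq2 without that tumor and 111 to 362 with each left out (111 without vehicle replicate 4, 307, 126 and 362 without IL-33 replicates 3, 5 and 7, the last of which also gave the 289). The replicate number as a block gave 246 higher and 72 lower genes. The numbers did not pair the tumors: correlations of same-numbered deviations ran from -0.348 to 0.413, and 1 of 8 pairs matched best. Members at an unadjusted p under 0.05 were 0, and 1 with the block (Flt3, 1.63; 1.89% of all genes), 2 with voom, 1 with DESeq2 without IL-33 replicate 7 (Cd209a) and 0 to 2 with each tumor left out. The exact tests gave 0 members, 1 (Flt3) with a pseudocount of 0.1, 1 (Flt3) with TMM sizes and 0 to 1 with each left out (Flt3, p of 0.0154 to 0.0417 without vehicle replicate 2 or 7 or IL-33 replicate 1, 2 or 6, exact permutation test); relative to Ptprc they gave 0, 1 with the macrophage reference and 0 to 1 (Flt3, without vehicle replicate 4). Pairs of members past an adjusted p of 0.05 numbered 15, 12 with TMM sizes, 12 without IL-33 replicate 7 and 0 within the 11 tumors, a set with fewer tumors chosen after the data were seen.

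Signs turned as follows, and the cause was not tested. Cd209a was -1.08 with the block, -0.38 with DESeq2, -2.22 with voom, -2.47 with DESeq2 without IL-33 replicate 7 and -0.32 to 1.65 with each tumor left out, and in the exact test -0.46 with a pseudocount of 0.1, -0.012 with TMM sizes and -0.43 to 0.20. Zbtb46 was -0.080 with voom, -0.024 with DESeq2 without IL-33 replicate 7 and -0.014 to 0.30. Irf8 ran from -0.17 to 0.26, in the exact test from -0.051 to 0.30, and Clec9a there from -0.28 to 0.019. Relative to the macrophage markers, Zbtb46, Xcr1, Batf3 and Irf8 were 0.20, 0.42, 0.41 and 0.062; relative to Ptprc, leaving out tumors gave Xcr1 -0.20 to 0.12, Batf3 -0.29 to 0.32 and Itgax -0.072 to 0.19. Flt3 kept its sign throughout, at 1.08 to 1.93 with each tumor left out. FilterByExpr removed Flt3 and Cd209a.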
